A study of Rattus norvegicus with 40 samples.

Results

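The transcriptome of the unexposed rat hippocampus at postnatal day 55 was described from the 8 control arrays of a study of developmental lead exposure that held 40 arrays in all. The 8 arrays were pooled as 1 set, chosen by the control label alone, and 14506 genes were ranked on them by mean signal and by spread between arrays. The controls were rats fed lead-free chow (0 ppm), killed at day 55, whose hippocampi were dissected at once and flash frozen. The other 32 arrays, from rats given chow with 250 or 750 ppm lead acetate perinatally or postnatally, entered only a check of labels. Each array held 100 ng of total RNA from 1 sample, hybridised to an Affymetrix rat gene array. The labels gave no strain and no litter, so whether the 8 animals came from separate litters is unknown. The arrays are numbered 1 to 8 in the order of their sample numbers, with arrays 1 to 4 labelled male and arrays 5 to 8 labelled female.

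The hippocampus is the part of the forebrain that encodes memories of places and events. Its granule cells in the dentate gyrus and its pyramidal cells in fields CA3, CA2 and CA1 are excitatory neurons that release glutamate, and they are held in check by local interneurons that release GABA. Astrocytes, oligodendrocytes, microglia and blood vessels surround them. The choroid plexus of the lateral ventricle, which secretes cerebrospinal fluid, and the leptomeninges, which cover the brain surface and follow the hippocampal fissure, lie against the structure. The pineal gland, which makes melatonin at night with enzymes and light-detection proteins that it shares with the retina, lies near by at the back of the forebrain.

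Signals are log2 values of probe sets, so a difference of 1 is 1 step of the log2 scale. Probe sets bind with unlike efficiency, and no measure per transcript length was available, so ranks by mean signal order array signals and not transcript molecules, and fine differences in level between genes are not read. The SD between the 8 arrays compares a probe set with itself, but SDs also differed with signal. The median SD was 0.05 over the 100 genes of highest mean and 0.10 over all genes. A small SD of a bright gene is therefore not read as a trait of that gene alone. Array medians lay between 7.0 and 7.04, and the 28 pairs of arrays correlated at r = 0.993 to 0.998 across genes, which are not independent replicates. In whole tissue, fewer cells of a type and less RNA per cell cannot be told apart. The transcript of Eif2s3, an X-linked translation factor subunit, went against the sex label on 3 of the 8 arrays. Of the 3 sex-linked genes measured, only Eif2s3 was used for this check. Arrays 5 and 7, labelled female, read 11.28 and 11.30, inside the range of 11.15 to 11.42 of the 16 exposed arrays labelled male. Array 4, labelled male, read 11.69, inside the range of 11.62 to 11.77 of the 16 exposed arrays labelled female. Array 6, labelled female, read 11.60, just under the range of the exposed arrays labelled female and above that of those labelled male. The 2 sexes were not contrasted here, and the main results that rest on arrays 4, 5 and 7 are also given without them.

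Mean signals of the 14506 genes ran from 2.59 to 13.39, with a median of 7.85 and quartiles at 5.97 and 9.36. Olfactory receptor genes, which serve smell in the nose, gave a yardstick for dim signal: the 53 genes named Olr had a median of 4.02, and 95% of them lay under 5.85. Above that level stood 11096 genes, 76.5% of all genes. This level is a description of dimness and not a limit of detection. Olfactory receptor names of either kind (Olr or Or) belonged to 1105 genes. With the 95th percentile of these as the level, 11145 genes stood above it, so most of the 1105 lay under the level used here. Sequence around the gene starts differed between the sets. The window from 250 bases before to 50 bases after the start, taken from RefSeq for 11950 of the 14506 genes, had a median GC content of 60.7% in genes above the level and 44.3% in genes below it. The letters TATAAA on the gene's own strand were present in 4.75% of windows above the level and in 18.4% below it, against 7.93% of all windows. The part of the olfactory receptor family in these differences was not tested. The ratio of observed to expected CpG dinucleotides had a median of 0.66 over all windows 0.75 over genes above the level and 0.77 over the 79 windows found for the 100 genes of highest mean. In those 79 windows TATAAA was present in 7.59%, near its share of all windows.

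The 5 genes of highest mean signal were Gapdh (13.39 ± 0.03, SD, n = 8), a glycolytic enzyme, Hspa8 (13.24 ± 0.05), the constitutive heat shock cognate chaperone, Actb (13.21 ± 0.03), cytoplasmic beta-actin, Rps29 (13.10 ± 0.05), a protein of the small ribosomal subunit, and Cnih2 (13.10 ± 0.04), an auxiliary subunit of AMPA receptors. The 8 values of Gapdh lay between 13.33 and 13.43, so its highest and lowest arrays differed by no more than 0.10. Next stood Chn1, a Rac-directed GTPase-activating protein of neurons, Tuba1b, an alpha-tubulin, the glycolytic enzyme Pgam1, Zwint, and the tetraspanin Tspan7, with means from 13.08 down to 12.97. Pgam1 and Tuba1b each had 2 probe sets that disagreed, and with the median over probe sets their means were 9.89 and 11.71 in place of 13.05 and 13.06. Neuronal genes among the 25 of highest mean included Snap25 (12.94 ± 0.06), a SNARE protein of vesicle fusion, Camk2a (12.92 ± 0.04), the alpha subunit of the calcium- and calmodulin-dependent kinase of dendritic spines, and Nrgn (12.84 ± 0.03), a postsynaptic calmodulin-binding protein. Camk2a read between 12.89 and 12.98 on the 8 arrays, with no array apart from the rest. Sparcl1 (12.89 ± 0.04), a matrix protein made largely by astrocytes, and Ndrg2 (12.87 ± 0.04), a protein of astrocytes, were the glial genes of that set. Mitochondrial genes were represented by Uqcr11, of respiratory complex III, and Cox6c, of complex IV. The boundary at rank 25 was not sharp, with means of 12.81 just inside and 12.80 just outside it.

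Of the 100 genes of highest mean signal, 30 belonged to 1 or more of the 41 gene lists used. Over all 14506 genes, 462 belonged to a list. The list of cytoskeleton and cell maintenance held 10 of them, cytosolic ribosomal proteins 5 and the vesicle release machinery 4. The pan-neuronal, excitatory neuron and postsynaptic density lists held 3 each, with Camk2a and Nrgn counted in more than 1 list. Oxidative phosphorylation and chaperones held 2 each. Astrocyte genes were represented by Slc1a2 (12.72 ± 0.04), the main glutamate transporter of the brain, and MHC genes by B2m (12.32 ± 0.08), the light chain of class I molecules. No gene of the myelin, microglia, vascular or interneuron lists was among the 100. The same held for the lists of the dentate gyrus, CA1, CA2, CA3, glutamate receptors, GABA-A receptors and neuropeptides.

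The dissection was first checked against marker genes of the hippocampus. All 10 pan-neuronal genes were in the top quartile of signals, with a list median of 12.07. Of 6 measured genes of excitatory neurons, 5 were in the top quartile. Slc17a7, the vesicular glutamate transporter of the forebrain, stood at 12.59 ± 0.07, while Slc17a6, the transporter typical of thalamus and brainstem, stood at 7.92 ± 0.10, close to the median of all genes. Neurod6, a transcription factor of forebrain pyramidal cells, read 11.72 ± 0.06.

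Markers of each hippocampal field were measured. For the dentate gyrus, 4 of 5 measured genes were in the top quartile: Neurod1 (10.31 ± 0.15) and Prox1 (9.78 ± 0.10), transcription factors of granule cells, C1ql2 (9.92 ± 0.11), a secreted synaptic organiser of mossy fibres, and Calb1 (9.85 ± 0.08), a calcium buffer. Tdo2, a tryptophan-degrading enzyme used as a granule cell marker, stood at 3.66 ± 0.18, under the olfactory receptor level. In CA1, Wfs1 (11.47 ± 0.08), a protein of the endoplasmic reticulum, Mpped1 (10.92 ± 0.05) and Fibcd1 (9.48 ± 0.06) were in the top quartile and Pou3f1 (8.87 ± 0.06) was not. In CA2, Pcp4 (12.07 ± 0.04), a calmodulin regulator, and Necab2 (10.21 ± 0.08), a calcium-binding protein, were in the top quartile, and Rgs14 (8.68 ± 0.06), a regulator of G protein signalling that restrains plasticity there, was between the median and that quartile. In CA3, Grik4 (10.21 ± 0.09), a kainate receptor subunit, was the sole gene of 5 in the top quartile, and Iyd (5.28 ± 0.19) was under the olfactory receptor level. No gene of these 4 lists reached an SD of 0.3, which 1.80% of all genes reached.

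Interneuron genes spanned a wide range of signal. The neuropeptide somatostatin (Sst) read 12.13 ± 0.05, cholecystokinin (Cck) 11.34 ± 0.15, and the GABA-synthesising enzymes Gad2 and Gad1 read 11.02 ± 0.09 and 10.40 ± 0.08. Neuropeptide Y (Npy, 10.17 ± 0.18) and parvalbumin (Pvalb, 9.48 ± 0.12) were also in the top quartile. The vesicular GABA transporter Slc32a1 (8.54 ± 0.05), calretinin (Calb2, 8.01 ± 0.10) and the transcription factor Lhx6 (7.82 ± 0.08) were nearer the median, and the peptide Vip (6.92 ± 0.14) was under it. Npy had the largest SD of the 10 genes and none reached 0.3, against 1.80% of all genes.

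Glial and vascular genes were grouped by cell type. Of 10 measured astrocyte genes, 8 were in the top quartile, among them Slc1a2, the fructose-bisphosphate aldolase Aldoc (12.24 ± 0.08), the water channel Aqp4 (11.87 ± 0.05) and the intermediate filament Gfap (11.03 ± 0.08). Of 10 measured myelin genes, 9 were in the top quartile, led by Mbp (12.04 ± 0.07), the major myelin basic protein, Cldn11 (11.86 ± 0.07), a tight junction protein of myelin, and Cnp (11.74 ± 0.04), a myelin enzyme. Opalin, a late myelin gene, had the largest SD of that list at 0.22, and its 8 values ran from 9.81 on array 3 to 10.43 on array 8 with a median of 10.23. The array values of Opalin overlapped without a break of more than 0.28. Precursor genes stood at a median of 9.30, with Olig1 (9.88 ± 0.07), a transcription factor of the lineage, in the top quartile. Microglial genes had a median of 8.60: Ctss (10.74 ± 0.08), a lysosomal protease, Cx3cr1 (10.37 ± 0.10), the fractalkine receptor, and Csf1r (10.06 ± 0.06), the receptor that microglia need to survive, were in the top quartile. Endothelial genes had a median of 8.07, and Slc2a1 (10.82 ± 0.09), the glucose transporter of the blood-brain barrier, was the single one in the top quartile. Mural cell genes had a median of 8.44, led by Rgs5 (10.80 ± 0.10), a pericyte marker.

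**Figure D1:**
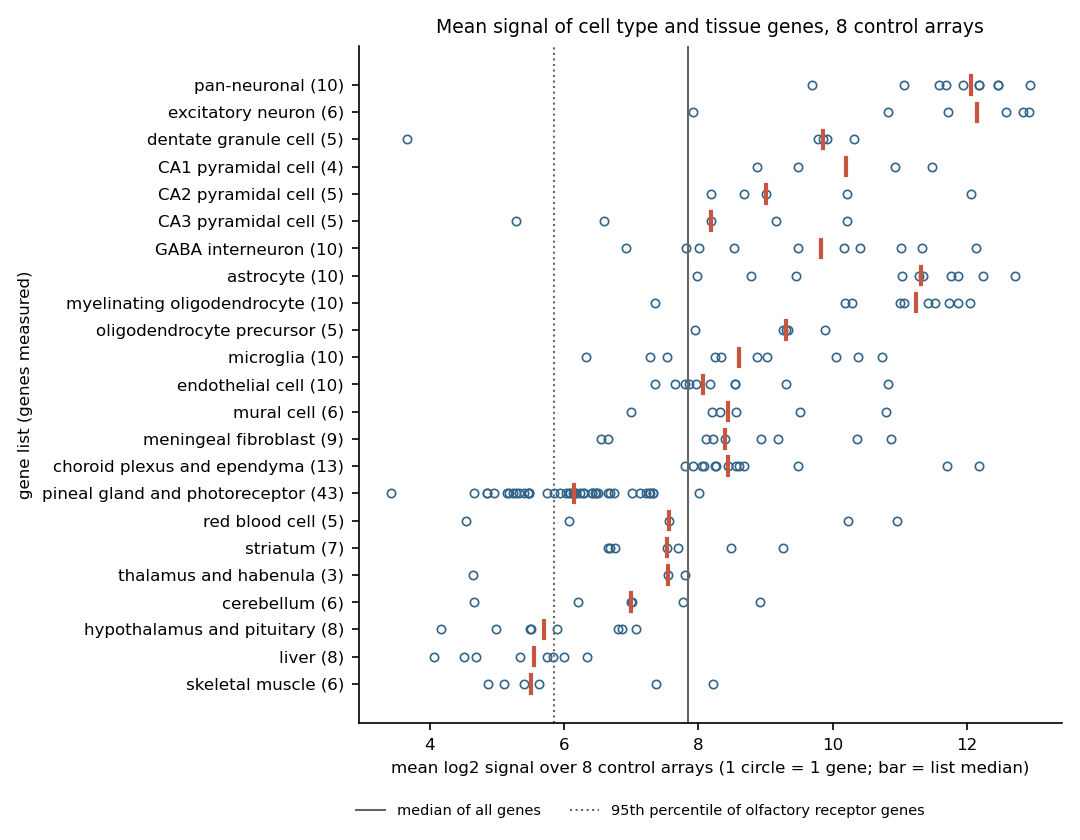
Mean log2 signal over the 8 control arrays (horizontal axis) of each measured gene (circle) in lists of cell types and tissues (rows, number measured in brackets), with the list median as a red bar, the median of all genes as a solid line and the olfactory receptor level as a dotted line. The pan-neuronal, excitatory neuron, astrocyte and myelin lists sit to the right with medians of 11.24 to 12.16, the lists of hippocampal fields and interneurons lie between 8.19 and 10.20, and liver, muscle and hypothalamus and pituitary lists sit near the dotted line with medians of 5.51 to 5.70.

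Lists of neighbouring brain regions and other tissues had medians under that of all genes. The 8 genes of hypothalamus and pituitary had a median of 5.70, with vasopressin (Avp) at 6.87 ± 0.12, orexin (Hcrt) at 7.07 ± 0.14 and prolactin (Prl) at 4.16 ± 0.12. Liver genes had a median of 5.55, with albumin (Alb) at 6.0 ± 0.16. Skeletal muscle genes had a median of 5.51, although Acta1, muscle alpha-actin, read 8.21 ± 0.09. No gene of 7 striatal, 6 cerebellar or 3 thalamic and habenular genes measured was in the top quartile. The striatal phosphoprotein Ppp1r1b, which the hippocampus also expresses, was highest among them at 9.26 ± 0.13, followed by the cerebellar and meningeal transcription factor Zic1 at 8.93 ± 0.33. Zic1 differed between arrays, from 8.37 on array 5 to 9.38 on array 3 with a median of 9.0. Red blood cell genes included Hbb (10.95 ± 0.22) and Hbb-b1 (10.23 ± 0.28), beta-globin chains that share sequence, so their probe sets cannot be taken as separate measures.

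Receptor genes of the excitatory synapse were measured across all families. Of the AMPA receptor subunits, which carry fast transmission, Gria1 read 12.14 ± 0.05, Gria2 11.94 ± 0.07, Gria3 11.44 ± 0.06 and Gria4 9.80 ± 0.08. Kainate receptor subunits ranged from 8.19 ± 0.13 for Grik1 to 10.73 ± 0.05 for Grik5. Of the NMDA receptor subunits, which admit calcium for plasticity, Grin2b read 11.52 ± 0.06, Grin2a 11.45 ± 0.05, the obligatory subunit Grin1 11.12 ± 0.06, Grin2c 9.01 ± 0.07 and Grin2d 7.06 ± 0.12. Grin3b, an NMDA receptor subunit typical of motor neurons, stood at 5.47 ± 0.13, under the olfactory receptor level. Of the metabotropic receptors, Grm5 read 10.83 ± 0.06, Grm3 10.38 ± 0.07 and Grm7 10.14 ± 0.09, while Grm6, a retinal receptor, read 6.49 ± 0.13. In these 3 lists, with 9, 7 and 7 genes measured, the largest SD of any gene was 0.13.

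Of 10 measured GABA-A receptor subunits, 8 were in the top quartile. Gabra5, the alpha subunit characteristic of hippocampal pyramidal cells, read 12.24 ± 0.07. Gabra2 (11.62 ± 0.07), Gabra3 (11.45 ± 0.09) and Gabra4 (10.61 ± 0.08) followed among alpha subunits, and Gabrb1 (11.26 ± 0.05) and Gabrb2 (10.67 ± 0.08) among beta subunits. Gabrd, the extrasynaptic delta subunit of granule cells, read 8.19 ± 0.07. Gabra6, the alpha subunit of cerebellar granule cells, read 4.66 ± 0.19, under the olfactory receptor level.

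The machinery of transmitter release was high and steady across arrays. All 16 measured genes were in the top quartile, with a list median of 11.73 and SDs between 0.02 and 0.08. The median SD of the list was 0.05, as was that of the 100 genes of highest mean. Synaptophysin (Syp, 12.47 ± 0.06), the calcium sensor synaptotagmin 1 (Syt1, 12.46 ± 0.04), the vesicle GTPase Rab3a (12.45 ± 0.02) and synapsin 1 (Syn1, 12.24 ± 0.03) stood below Snap25. Of 16 measured postsynaptic density genes, 13 were in the top quartile, with Ppp3ca (12.65 ± 0.05), the catalytic subunit of calcineurin, Camk2b (12.17 ± 0.04), and Dlg4 (11.63 ± 0.03), the scaffold PSD-95, among them. Shank1, a scaffold of the postsynaptic density, had the smallest SD of all genes above the olfactory receptor level, 0.009, and its 8 values lay between 11.89 and 11.92. The other genes of smallest spread included Slc6a17, a vesicular amino acid transporter, Prkce, a protein kinase C, Ncdn (neurochondrin), Adk, adenosine kinase, Calm3, a calmodulin gene, Atp2b2, a plasma membrane calcium pump, and Rab3a.

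Signals of peptides, growth factors and their receptors spanned several log2 steps between genes. All 16 neuropeptide genes were above the olfactory receptor level, and besides Sst and Cck the granins Chgb (11.45 ± 0.07) and Scg2 (11.40 ± 0.07), which package peptides into vesicles, were highest. Corticotropin-releasing hormone (Crh) was lowest at 6.61 ± 0.04. The neurotrophin receptor Ntrk2 read 11.71 ± 0.04 and its ligand Bdnf 7.46 ± 0.13. Among hormone-responsive genes, the mineralocorticoid receptor Nr3c2 read 11.23 ± 0.07 and the glucocorticoid receptor Nr3c1 9.85 ± 0.06. The glucocorticoid targets Sgk1 (10.63 ± 0.20), a kinase, and Sult1a1 (8.59 ± 0.28), a sulfotransferase, spread more than the receptors. None of the 10 genes reached an SD of 0.3, against 1.80% of all genes. Clock genes had a median SD of 0.09, with Dbp (11.36 ± 0.09), an output gene of the clock, highest and Per1 (9.42 ± 0.20), a light- and activity-responsive clock gene, most variable. Genes of newborn neurons and dividing cells stood at a median of 7.24, with none in the top quartile. Sox2 (9.30 ± 0.17), a stem cell and astrocyte factor, and Dcx (9.18 ± 0.07), a microtubule protein of immature neurons, were highest among them, and the mitotic kinase Cdk1 (4.86 ± 0.22) was under the olfactory receptor level.

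Genes of cell maintenance were high as groups. Of 67 measured cytosolic ribosomal protein genes, 57 were in the top quartile, with a list median of 10.83. Ribosomal protein genes have many processed copies in the genome, so their probe sets may also take signal from copies. Of 38 measured genes of oxidative phosphorylation, 32 were in the top quartile, with a median of 10.91. None of the 38 reached an SD of 0.3, against 1.80% of all genes. Of 14 measured chaperone genes, 12 were in the top quartile, among them Hspa8, the cytosolic Hsp90ab1 (12.34 ± 0.05) and Hspa5 (12.09 ± 0.16), the chaperone BiP of the endoplasmic reticulum. Hspb1, a small heat shock protein, was the single chaperone with an SD of at least 0.3. It read 9.01 on array 4 and between 7.32 and 8.09 on the other 7 arrays, and its SD was 0.30 without arrays 4, 5 and 7, in place of 0.52.

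Spread between the 8 arrays was small for most genes. The median SD was 0.10, the 99th percentile was 0.41, and 261 genes (1.80%) had an SD of at least 0.3, of which 201 were above the olfactory receptor level. The 100 genes of highest mean had a median SD of 0.05, and none of them reached 0.3. An SD of 1 or more was reached by 25 genes. Of the 50 genes of largest SD, 11 were in the list of choroid plexus and ependyma, 13 in that of the pineal gland and photoreceptors, described further on, and 3 in that of meningeal fibroblasts. The boundary at rank 30 fell between SDs of 0.88 and 0.87, and the one at rank 50 between 0.73 and 0.72. Array 3 held the highest value for 27 of the 50 genes of largest SD and array 4 for 14. Array 5 held the lowest value for 30 of the 50. Of the 201 genes above the olfactory receptor level with an SD of at least 0.3, array 3 was highest for 93 and array 4 for 43. Array 5 was lowest for 91 of the 201, array 2 for 39, and arrays 4 and 7 for 16 each.

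**Figure D2:**
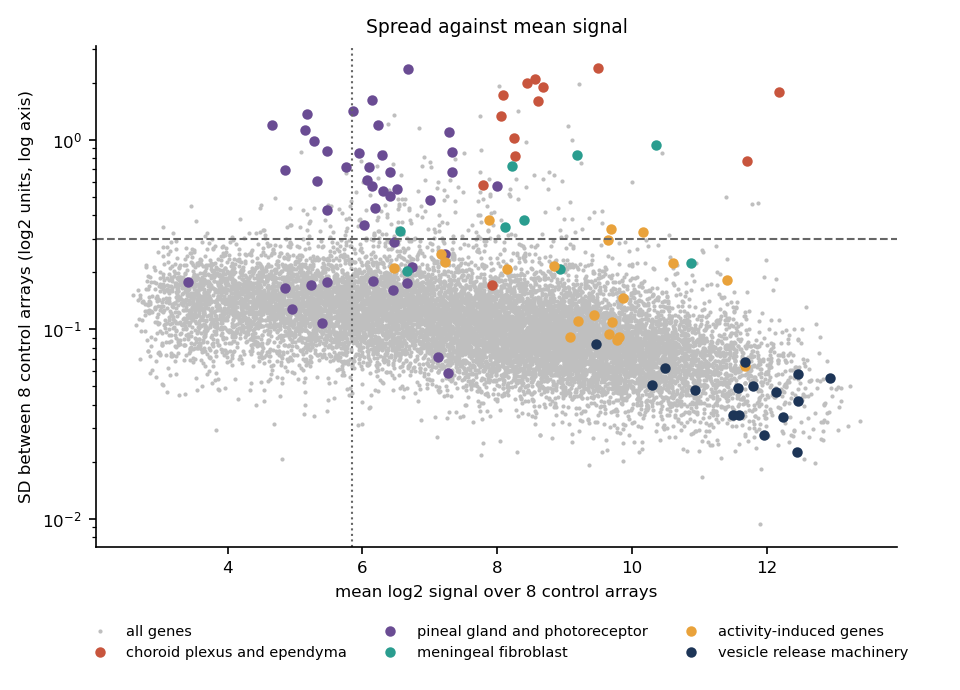
SD between the 8 control arrays (vertical axis, log2 units on a log axis) against mean log2 signal (horizontal axis) for 14506 genes (grey) with 5 gene lists in colour, the olfactory receptor level as a dotted line and an SD of 0.3 as a dashed line. Choroid plexus and pineal genes stand above the cloud with list medians of 1.61 and 0.57, and vesicle release genes lie along its lower edge with a median of 0.05.

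Choroid plexus genes divided the arrays into a high and a low set with an empty range between them. A gene was said to have 2 levels where its 8 sorted values left an empty range of at least 1 with at least 2 arrays on each side, and 20 genes did so, 18 of them high on arrays 1, 3, 6, 7 and 8 and low on arrays 2, 4 and 5. Kcnj13, an inwardly rectifying potassium channel of the plexus epithelium, had an SD of 2.38, as did Tph1, described further on, and the order of these 2 was not stable: Tph1 had the larger SD in 7 of the 8 runs that each left out 1 array. Kcnj13 read 11.28, 11.64, 11.19, 10.99 and 10.76 on arrays 1, 3, 6, 7 and 8, and 7.10, 7.33 and 5.64 on arrays 2, 4 and 5. The empty range between the sets was 3.43 wide. Ttr, the thyroid hormone carrier transthyretin and the most abundant secreted product of the plexus, read 13.37, 13.50, 13.35, 13.28 and 13.29 on the high arrays, where it ranked 1 or 2 of all genes. It read 10.97 on array 2, 11.06 on array 4 and 8.61 on array 5, ranking 848, 791 and 5472 there.

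The pattern repeated, by role, in most of the other plexus genes. Among transporters and channels, Clic6, an intracellular chloride channel protein, left an empty range of 3.16, Slc4a5, a sodium bicarbonate cotransporter, of 1.40, and Aqp1, the water channel of the plexus, of 1.38. Among junction and surface proteins, Cldn2, a pore-forming claudin, left 2.55, Folr1, a folate receptor, 1.60, and Mfrp, a membrane frizzled-related protein, 2.86. Among secreted or shed proteins, Kl (klotho) left 2.84, Sostdc1, an inhibitor of BMP and WNT signalling, 2.72, and F5, a coagulation factor, 2.06. Prlr, the prolactin receptor, and Ace, angiotensin-converting enzyme, were 2-level genes as well. Enpp2, autotaxin, which oligodendrocytes also make, had a narrower empty range of 1.15 about a mean of 11.71. Foxj1, the regulator of motile cilia in ependymal cells, did not separate, with values between 7.67 and 8.16 and a median of 7.90. Sulf1 and Igfbp2, of the same list, left narrower empty ranges of 0.52 and 0.74. For Sulf1 the arrays divided as for Kcnj13, but for Igfbp2 array 4 stood on the high side.

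All 13 measured genes of the choroid plexus and ependyma list were highest on array 3, and they were lowest on array 5 (10 genes) or array 4 (3 genes). Of the 13, 12 had an SD of at least 0.3. Array 3 was highest for 93 of the 201 genes above the olfactory receptor level with such an SD. Array 5 was lowest for 91 of these 201 and array 4 for 16. The share over all genes was not computed. The list mean over its 13 genes was 10.30 on array 3, 10.08 on array 1, 9.91 on array 6, 9.63 on array 7 and 9.58 on array 8. It was 7.61 on array 4, 7.50 on array 2 and 6.82 on array 5. The high and low sets each held arrays of both sex labels, and the low set held arrays 4 and 5, whose Eif2s3 goes against the label. Without arrays 4, 5 and 7, array 2 alone stood low, and the definition, which needs 2 arrays on each side, could not find these genes. The SD without those 3 arrays was 1.87 for Kcnj13 (2.38 with them) and 1.08 for Ttr (1.79 with them). The list mean of pan-neuronal genes moved only between 11.77 and 11.85 over the same arrays, and that of myelin genes between 10.78 and 10.92, with array 3 lowest in both. The part of plexus tissue in the spread of other genes was not tested.

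The promoter windows of the most variable genes differed in composition from the rest: the 36 windows found for the 50 genes of largest SD had a median CpG ratio of 0.27 and a median GC content of 53.7%, against 0.66 and 58.0% over all windows. The window of Kcnj13 is shown because it carried the letters TATAAA, starting 46 bases before the gene start (GRCr8, chr9:95518937-95519236, minus strand). The capitals mark those letters, which were searched on the gene's own strand only.

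Kcnj13: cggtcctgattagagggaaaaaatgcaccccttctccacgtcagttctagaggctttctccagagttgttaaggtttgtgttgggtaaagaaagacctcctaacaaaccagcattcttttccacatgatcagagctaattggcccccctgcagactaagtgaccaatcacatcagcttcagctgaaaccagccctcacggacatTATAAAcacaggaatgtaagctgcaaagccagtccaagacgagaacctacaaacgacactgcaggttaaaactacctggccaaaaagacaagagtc

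A match is a description of the letters and not of a site in use.

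Another group of genes stood high on array 4 alone. Tph1, the tryptophan hydroxylase of the pineal gland that begins the synthesis of serotonin and melatonin, read 12.29 on array 4, where it ranked 108 of all genes. It read 7.39 on array 3, 6.24 on array 7 and between 5.25 and 5.96 on the other 5 arrays. Crx, the homeobox factor of photoreceptors and pinealocytes, read 9.37 on array 4 and between 5.29 and 5.40 on the other 7. Over all genes, 36 were higher on array 4 than on every other array by at least 1, and no other array exceeded all the rest by that much for any gene.

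A list of 44 genes of the pineal gland and photoreceptors was put together after these values were seen, and its counts are a description. Of its 43 measured genes, 36 were highest on array 4, and 26 were higher there than on any other array by at least 1. Among the 201 genes above the olfactory receptor level with an SD of at least 0.3, array 4 was highest for 43. Among genes of light detection, Gnat2, the cone transducin alpha subunit, read 10.13 on array 4 and between 5.36 and 6.0 elsewhere. Gnb3, a transducin beta subunit, read 9.97 and between 6.68 and 7.14 elsewhere, and Sag, the visual arrestin, 6.55 and between 4.45 and 4.69 elsewhere. Among structural and visual cycle genes, Rbp3, the retinoid-binding protein between photoreceptors and pigment epithelium, read 8.54 on array 4 against at most 5.06 elsewhere. Impg2, a matrix proteoglycan around photoreceptors, read 7.94 on array 4 and at most 4.85 elsewhere, and Prph2, a disc membrane protein, 8.04 and at most 5.78. Neurod4, a proneural transcription factor, read 9.21 on array 4 and at most 5.98 on the other arrays. Among receptors, Chrna3 (9.43) and Chrnb4 (8.98), nicotinic subunits of autonomic and habenular neurons that the pineal gland also expresses, were at most 7.18 and 7.24 on the other arrays.

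Not all pineal genes shared the pattern. Asmt, the last enzyme of melatonin synthesis, was higher on array 4 by less than 1, at 7.83 against at most 7.24. Aanat, the night-time enzyme that sets the rhythm of melatonin synthesis, read 7.16 on array 4, within its range of 7.0 to 7.21. Drd4, a dopamine receptor of the pineal gland and retina, read 6.20 on array 4 within 5.91 to 6.46, and the short-wavelength cone opsin Opn1sw and the rod phosphodiesterase Pde6b did not stand apart on it either. Of the 36 genes that led by at least 1 on array 4, 10 were outside the list, with Alox15, an arachidonate lipoxygenase, ahead (9.62, and at most 6.91 elsewhere), followed by the potassium channel Kcnh6, carbonic anhydrase 3 (Car3) and galectin 3 (Lgals3). The list mean over the 43 genes was 7.49 on array 4, 6.01 on array 3 and between 5.77 and 5.89 on the other 6. Array 4 was also 1 of the 3 arrays low in choroid plexus genes, and its Eif2s3 goes against the label. Without array 4 the SD of Tph1 was 0.77 and that of Gnat2 0.23, and the number of genes with an SD of at least 0.3 was 221 in place of 261. Without arrays 4, 5 and 7 that number was 250, the SD of Tph1 was 0.88 and that of Gnat2 0.27.

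The windows around the starts of these genes were searched for TAATCC, the letters that Crx and related homeobox factors are known to bind, on both strands. The letters occurred in 11 of the 37 windows found for the list (29.7%) and in 6.29% of all 11950 windows. Not all of the 11 stood high on array 4. They included Aanat and Opn1sw, which did not stand apart there, and Cngb1 and Abca4, which did not lead there by 1. A like share was not confined to the pineal list. The letters occurred in 4 of the 14 windows found for the 2-level genes (28.6%). They occurred in 9 of the 36 found for the 50 genes of largest SD, of which 13 are on the pineal list. In the choroid plexus and ependyma list they occurred in 0 of 7 windows. Whether the letters mark the array 4 pattern was not tested. The promoters of 3 genes high on array 4 are shown, with the match in capitals (GGATTA is the same motif read on the other strand). Crx lies on the minus strand (GRCr8, chr1:85681803-85682102) and held 2 matches, Rbp3 on the plus strand (chr16:9273537-9273836) held 1, and Prph2 on the minus strand (chr9:21579025-21579324) held 1.

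Crx: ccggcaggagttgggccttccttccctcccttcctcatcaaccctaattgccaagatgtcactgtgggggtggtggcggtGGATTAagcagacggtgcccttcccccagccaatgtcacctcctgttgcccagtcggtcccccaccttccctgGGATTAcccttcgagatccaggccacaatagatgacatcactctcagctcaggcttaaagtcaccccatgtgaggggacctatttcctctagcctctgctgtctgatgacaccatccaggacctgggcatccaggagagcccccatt

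Rbp3: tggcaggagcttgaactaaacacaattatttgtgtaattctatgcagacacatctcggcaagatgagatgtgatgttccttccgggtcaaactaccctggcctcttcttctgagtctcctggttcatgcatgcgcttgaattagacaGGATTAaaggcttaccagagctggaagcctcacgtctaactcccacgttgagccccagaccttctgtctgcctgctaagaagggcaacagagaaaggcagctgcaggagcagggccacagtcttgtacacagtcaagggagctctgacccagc

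Prph2: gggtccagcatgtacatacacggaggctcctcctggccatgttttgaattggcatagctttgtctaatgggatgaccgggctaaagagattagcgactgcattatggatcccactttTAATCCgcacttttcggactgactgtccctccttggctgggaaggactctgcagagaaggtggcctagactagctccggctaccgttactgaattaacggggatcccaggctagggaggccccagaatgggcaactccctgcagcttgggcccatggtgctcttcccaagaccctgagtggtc

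**Figure D3:**
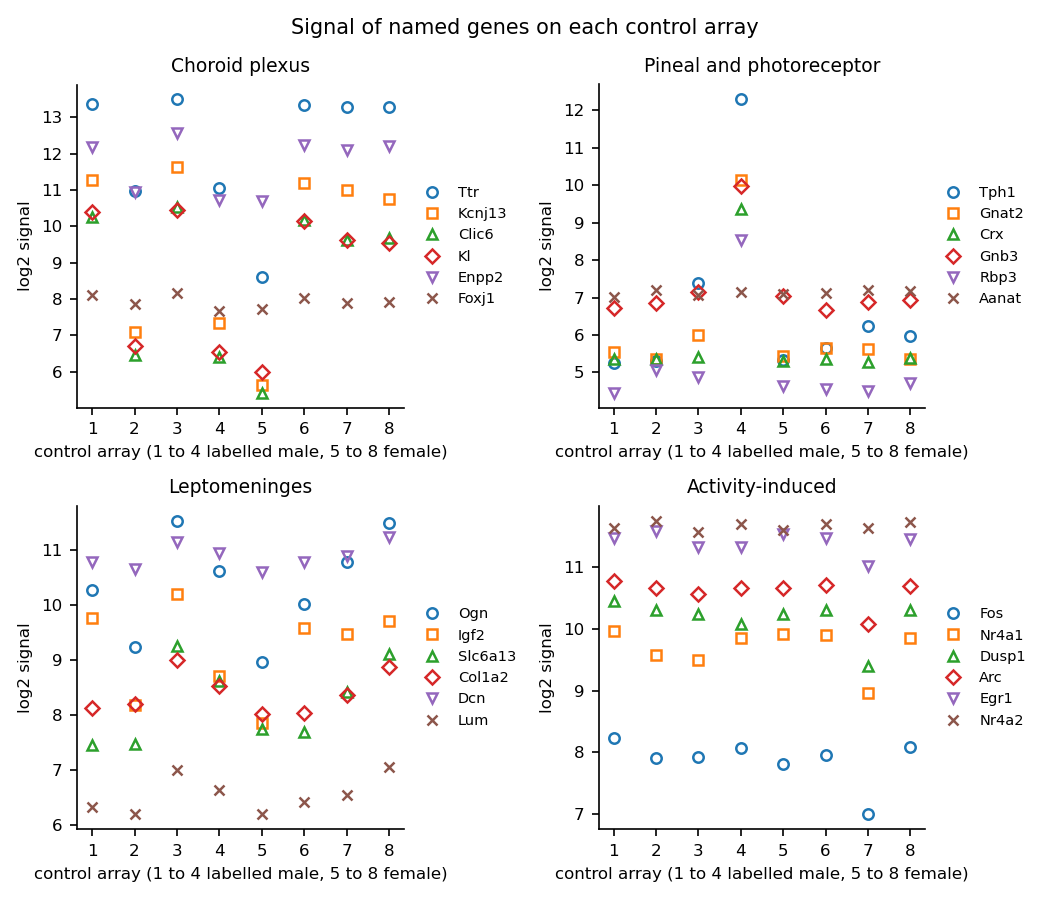
Log2 signal (vertical axes) on each of the 8 control arrays (horizontal axes) of 6 genes each of the choroid plexus, the pineal gland and photoreceptors, the leptomeninges and the activity-induced list (1 marker shape and colour per gene). Plexus genes other than Foxj1 are low on arrays 2, 4 and 5, pineal genes other than Aanat are high on array 4, Ogn and Slc6a13 are high on arrays 3 and 8, and 5 of the 6 activity-induced genes are lowest on array 7.

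Genes of the leptomeninges shared the highest and lowest arrays of the plexus list and differed from it between them. Ogn, osteoglycin, read 11.53 on array 3 and 11.49 on array 8, then 10.77, 10.61, 10.27 and 10.02 on arrays 7, 4, 1 and 6, and 9.24 and 8.96 on arrays 2 and 5. Slc6a13, a GABA transporter of meningeal fibroblasts, read 9.25 on array 3 and 9.11 on array 8, with the lowest values on arrays 1 (7.45) and 2 (7.47). Col1a2, a fibrillar collagen chain, read 9.0 and 8.88 on arrays 3 and 8 and at most 8.54 on the rest. Of the 9 genes of the list, 6 were highest on array 3 and 3 on array 8, and 6 had an SD of at least 0.3. Array 5 was lowest for 6 of them and array 1 for 3. Among the 201 genes above the olfactory receptor level with such an SD, array 3 was highest for 93 and array 5 lowest for 91. The list mean was highest on array 3 (9.22) and lowest on arrays 5 (8.04) and 2 (8.14), the same arrays as for the plexus list. Igf2 (9.18 ± 0.83), a growth factor made by both meninges and choroid plexus, followed the plexus arrays in part: it was lowest on arrays 5 (7.85) and 2 (8.18) and next lowest on array 4 (8.72). Array 4, low in plexus genes, was the third or the fourth highest in Ogn, Slc6a13 and Col1a2, so the 2 lists ordered the arrays between these extremes differently. Dcn (10.87 ± 0.22), decorin, had the highest mean of the list and ran from 10.60 on array 5 to 11.23 on array 8 with a median of 10.83.

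Among immune genes, several of the MHC list differed between arrays. Cd74, the invariant chain of MHC class II, read 9.23 on array 8 and 9.20 on array 3 and was lowest on arrays 5 (7.40) and 2 (7.84), with a median of 8.68. The class II chain RT1-Ba was also highest on array 8 (7.47) and lowest on array 5 (6.18), about a median of 6.61. The class I gene RT1-CE16 had another pattern, with arrays 5 (6.53) and 6 (6.74) below the other 6, which lay between 7.46 and 7.84. MHC genes are polymorphic and closely related in sequence, so probe signals can differ with the allele, which was not tested. Among interferon-induced genes, none of 9 was in the top quartile and 2 (Ifit1 and Usp18) had an SD of at least 0.3, at means of 4.93 and 5.94.

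Activity-induced genes, which neurons transcribe within minutes of strong firing, were lowest on 1 array. Of 20 measured genes, 14 were lowest on array 7. Among the 201 genes above the olfactory receptor level with an SD of at least 0.3, array 7 was lowest for 16. The share over all genes is not given here. Fos, a component of the AP-1 transcription factor, read 6.99 on array 7 and between 7.81 and 8.23 on the other 7. Nr4a1, an orphan nuclear receptor, read 8.97 on array 7 and 9.49 to 9.96 elsewhere. Dusp1, a phosphatase that shuts off MAP kinases, read 9.40 on array 7 and 10.08 to 10.46 elsewhere. Arc, a cytoskeletal protein of activated synapses, read 10.08 on array 7 and 10.56 to 10.78 elsewhere. Egr1 (11.02 against 11.32 to 11.59), Egr2 (6.70 against 7.15 to 7.39) and Junb (8.34 against 8.82 to 9.01), transcription factors of the same early wave, were lowest there too. Nr4a2 (11.67 ± 0.06) and Fosl2 (9.80 ± 0.09), members of the same families, did not stand apart on array 7. The list mean was 8.94 on array 7 and between 9.27 and 9.39 on the other 7. Array 7 is labelled female and its Eif2s3 goes against that label. Without arrays 4, 5 and 7, the SD of Fos was 0.14 (0.38 with them) and that of Dusp1 0.08 (0.33 with them). The median SD of the 20 genes was then 0.10 in place of 0.19, and none reached 0.3, in place of 3.

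The full cyclic AMP response element, TGACGTCA, which the factor CREB is known to bind, was searched in the windows of these genes on both strands. It was present in 2 of 15 windows found (Ier2 and Dusp1) and in 2.46% of all windows. The serum response element core known as the CArG box was present in 2 of the 15 (Egr1 and Egr2) and in 1.28% of all. The full element reads the same on both strands. The window of Dusp1, 1 of the 2 that carried it, is shown with the element in capitals. It starts 124 bases before the gene start (GRCr8, chr10:17184603-17184902, plus strand).

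Dusp1: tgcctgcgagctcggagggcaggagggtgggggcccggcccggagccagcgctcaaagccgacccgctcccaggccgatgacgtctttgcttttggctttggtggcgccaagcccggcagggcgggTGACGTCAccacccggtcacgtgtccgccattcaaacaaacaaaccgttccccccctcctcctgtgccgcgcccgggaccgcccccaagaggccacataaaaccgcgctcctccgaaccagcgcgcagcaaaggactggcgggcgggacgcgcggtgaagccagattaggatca

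The anchor genes of these sources were compared over the 8 arrays. Fos and Dcn correlated at Pearson r = 0.07 (exact permutation p = 0.862, adjusted p = 0.862) and Spearman rho = 0.36 (exact permutation p = 0.389). Leaving out the 2 arrays farthest from the median of Fos gave r = 0.67 (exact permutation p = 0.142). Dcn and Mbp correlated at r = -0.34 (exact permutation p = 0.425) and rho = -0.26 (exact permutation p = 0.536), and at r = -0.77 without 2 arrays (exact permutation p = 0.0625). Fos and Mbp correlated at r = 0.31 (exact permutation p = 0.389) and rho = 0.26 (exact permutation p = 0.536), and at r = 0.11 without 2 arrays (exact permutation p = 0.861). All tests were two-sided, and 3 pairs were computed. After Benjamini-Hochberg adjustment the permutation p-values of r were 0.637 or more over the 8 arrays and 0.1875 or more without 2 arrays. Ttr fell into separate sets of arrays, so no pooled correlation was computed with it.

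**Figure D4:**
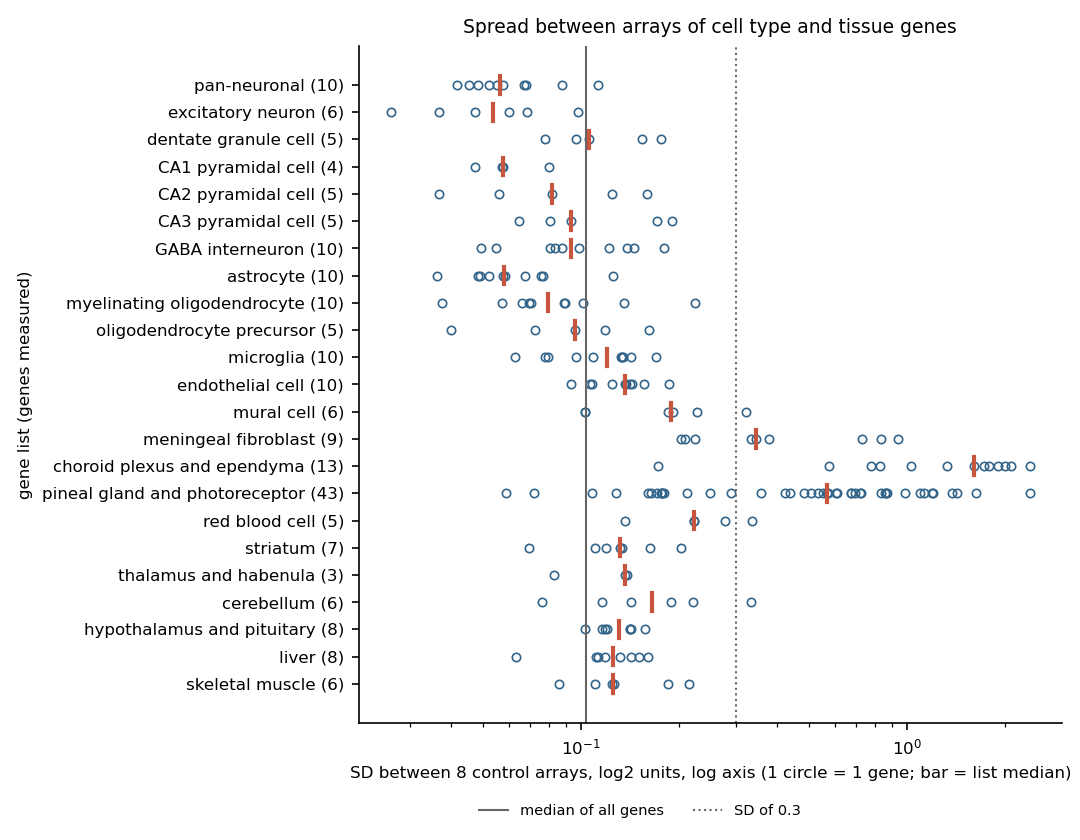
SD between the 8 control arrays in log2 units (horizontal log axis) of each measured gene (circle) in lists of cell types and tissues (rows, number measured in brackets), with the list median as a red bar, the median of all genes as a solid line and an SD of 0.3 as a dotted line. The choroid plexus list has a median of 1.61, the pineal list of 0.57 and the meningeal list of 0.34. Every neuronal, astrocyte and oligodendrocyte gene lies under 0.3, as do all but 1.80% of all genes.

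A few single genes varied in patterns of their own. Lowering the required empty range from 1 to 0.5 gave 62 genes, of which 31 were high on arrays 1, 3, 6, 7 and 8, and 11 on these arrays and array 4. Prps1, a phosphoribosyl pyrophosphate synthetase of nucleotide synthesis, read 10.52, 10.75 and 10.88 on arrays 1, 3 and 7 and between 9.44 and 9.70 on the other 5. Slc39a12, a zinc transporter, read 7.49 to 7.80 on arrays 2, 5, 7 and 8 and 6.45 to 6.70 on arrays 1, 3, 4 and 6. Nmbr, the neuromedin B receptor, read 8.42 and 8.35 on arrays 2 and 5 and between 7.44 and 7.66 on the other 6. Rpl36a, the sole ribosomal protein gene of 67 measured with an SD of at least 0.3, read 12.13 and 12.04 on arrays 5 and 1 and between 10.73 and 11.46 on the other 6. Ccn1, a secreted matrix protein encoded by an immediate early gene, read 7.48 to 8.0 on arrays 1, 2, 3 and 6 and 6.71 to 6.88 on arrays 4, 5, 7 and 8. These genes were chosen after their values were seen.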

How the data were processed

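The values were log2 signals of 29214 probe sets as deposited by the authors, made with RMA in Partek per the submitters' processing notes (no versions given), which corrects background, equalises arrays and summarises probes. They were used unchanged. Of the probe sets, 15310 carried 1 gene symbol, 323 several and 13581 none, and those with several or none were left out. Symbols came from the platform annotation, updated through gene IDs with RefSeq, and each of 14506 genes was its probe set of highest mean (527 genes had more than 1). The 8 control arrays were pooled, with no contrast between them. The analysis used Python 3.11.15 with pandas 2.3.3, numpy 2.4.6 and scipy 1.17.1, and matplotlib 3.10.9. It was tested on simulated data with known shifts.

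The set of arrays, the lists and the rules were chosen with earlier results of these data known, and the list of pineal genes after its values were seen. By the naming rule, the text took genes from the 25 of highest mean, the 30 of largest SD, the 10 of smallest SD above the olfactory receptor level and the 15 of widest empty range, and from each list the members of highest mean, largest SD and lowest mean. Receptor subunits and cell type markers were free to name, and others were chosen after their values were seen. Promoter windows came from RefSeq (GRCr8), 250 bases before to 50 after each gene start. The number of arrays limited the precision. Alternatives were other normalizations and scalings, the median over probe sets, a filter on the dimmest 40% of genes, other measures of spread and leaving out arrays.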

Additional observations from a re-analysis of the deposited data

Results flagged for a closer look

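For each gene named in the report, the gap between its highest or lowest array and the nearest of the others was divided by the range over the 8 arrays. A gene is given here where that share passed the 95% critical value of Dixon's test for 8 values. Chance passes it in about 1 of 20 groups, and 30 of 186 named genes passed. Many of them were named because an array stood apart, so their number is no count of chance events.

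Array 4 stood above the other arrays for 18 genes, given with their shares. The pineal and photoreceptor genes were Tph1 (0.695), Crx (0.973), Gnat2 (0.864), Gnb3 (0.861), Sag (0.885), Rbp3 (0.852), Impg2 (0.94), Prph2 (0.872), Neurod4 (0.917), Chrna3 (0.848), Chrnb4 (0.861) and Asmt (0.742). The genes Hspb1 (0.546), Alox15 (0.787), Kcnh6 (0.802), Car3 (0.87) and Lgals3 (0.844) lie outside that list and were highest on array 4 too. Neurod1, a transcription factor named in the report for dentate granule cells, was also highest on array 4, with a share of 0.727.

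Array 7 stood below the other arrays for 7 activity-induced genes, which were Fos (0.661), Nr4a1 (0.528), Dusp1 (0.642), Arc (0.689), Egr1 (0.535), Egr2 (0.657) and Junb (0.721).

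The other 5 genes were spread over several arrays. The glycolytic enzyme Aldoc was highest on array 6, with a share of 0.665, and the NMDA receptor subunit Grin1 was highest on array 5 (0.546). Dbp was lowest on array 6 (0.605), Gria4 on array 1 (0.597) and Necab2 on array 8 (0.59).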

How the results depend on the processing

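The count of genes with an SD of at least 0.3 was 261, and 109 when the dimmest 40% of genes were left out. Of the 50 genes of largest SD, 28 were shared with that filter and 31 with the median absolute deviation as the measure of spread. The count of 2-level genes was 20, fell to 6 without the arrays whose Eif2s3 goes against their label, where array 2 alone stays low in plexus genes and the definition needs 2 arrays, and rose to 62 at an empty range of 0.5, a setting chosen after seeing the data. Leaving out each array in turn gave 11051 to 11132 genes above the olfactory receptor level, 221 to 290 genes with an SD of at least 0.3 and 19 to 26 2-level genes. It kept 99 to 100 of the 100 genes of highest mean and 37 to 50 of the 50 of largest SD, with the fewest of the latter without array 4. Under these runs, the SDs of the 30 most variable genes moved in 11 comparisons and stayed within the set limits in 229, and list medians moved in none of 328. Under the other alternatives, SDs moved in 30 and stayed in 139, list medians moved in 21 and stayed in 182, and the means of the 10 highest genes moved in 4 and stayed in 46. These 4 were Gapdh (13.28), Hspa8 (12.92), Pgam1 (9.89) and Tuba1b (11.71), all with the median over probe sets. Leaving out the dimmest genes left no liver, hypothalamus or pituitary gene, so these 2 medians have no value there. No paired analysis was possible because no comparison between groups was made. The number of arrays and the unknown efficiency of each probe set limit these values.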
